A study of Homo sapiens with 12 samples.

Results

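The CEACAM genes measured here were CEACAM6, the gene targeted by the siRNAs, and its family members CEACAM5, CEACAM1, CEACAM7 and CEACAM19. They were taken by gene symbol, 5 of the 60617 genes in each file, and all 5 passed the filter on low counts that left 17620 genes for testing, which none of 7 further CEACAM genes did. RNA was sequenced from SNU308, an established human gallbladder cancer cell line with a wild-type genotype per the labels, in 12 samples that formed 3 groups of 4. Cells received a non-targeting control siRNA (NTC), siCEACAM6#2 or siCEACAM6#3, each at 25 nM, and RNA was taken on day 3. No untransfected cells are among these groups, so every level below is that of a transfected culture. The comparison asked what happens to the other family members when CEACAM6 mRNA is lowered by either siRNA.

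CEACAM proteins are cell surface glycoproteins of the immunoglobulin superfamily that bind each other on the same or on neighbouring cells. CEACAM5 (the carcinoembryonic antigen used as a blood tumour marker), CEACAM6 and CEACAM7 are held in the membrane by a glycosylphosphatidylinositol (GPI) anchor, whereas CEACAM1 spans the membrane and carries a cytoplasmic tail with inhibitory signalling motifs. CEACAM19 is a distant, less studied transmembrane member. In epithelia of the gut and bile tract the GPI-anchored members lie on the apical surface, and CEACAM6 is known for its effects on adhesion and on cell death after detachment.

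All 5 genes lie on chromosome 19 (GRCh38). CEACAM7 (ENSG00000007306, 41673303 to 41706976, minus strand), CEACAM5 (ENSG00000105388, 41708585 to 41730433, plus strand) and CEACAM6 (ENSG00000086548, 41750977 to 41772211, plus strand) follow one another. CEACAM1 (ENSG00000079385, 42507304 to 42561234, minus strand) and CEACAM19 (ENSG00000186567, 44662278 to 44684359, plus strand) lie further along the chromosome.

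The siRNA target sites are shown because they are what separates the treated groups from each other. Both are 21 bases long, match the 2594-base transcript CEACAM6-201 once and lie in its last exon, exon 6 of 6, within the 3′ untranslated region (UTR). Capitals mark the 7 bases that pair with bases 2 to 8 of the guide strand, its seed.
siCEACAM6#2 target, chr19:41771369-41771389, plus strand: cagccatgcaatgCCAAATAa
siCEACAM6#3 target, chr19:41771611-41771631, plus strand: ctcctaatagtcaTACTAGTa
The siCEACAM6#2 site began 608 bases after the stop codon and the siCEACAM6#3 site 850 bases after it, and neither overlapped the other.

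No annotated transcript of the other 4 genes held either 21-base target. The nearest windows were in the 3′ UTR of CEACAM7, with 4 mismatches to the siCEACAM6#2 target (C5T, C9G, A10G and A17G, the target base first, counted from 1 at the 5′ end) and 5 mismatches to the siCEACAM6#3 target (A6G, A9T, T14C, C16A and G19T). They are printed with the mismatched bases in capitals, to show how close a paralogue came to each target.
CEACAM7 window nearest to the siCEACAM6#2 target: cagcTatgGGatgccaGataa
CEACAM7 window nearest to the siCEACAM6#3 target: ctcctGatTgtcaCaAtaTta
In CEACAM5, CEACAM1 and CEACAM19 the nearest windows had 7 or 8 mismatches. The 7-base site CCAAATA, searched on the transcript strand, was also found once each in CEACAM5-201, CEACAM1-201 and CEACAM7-201, but 16.29% of 4665 protein-coding transcripts of 2215 to 3501 bases held it. The site TACTAGT was in none of the other 4 transcripts and in 5.08% of those 4665. The siCEACAM6#2 seed site lay in the 3′ UTR in CEACAM1-201 and CEACAM7-201 but not in CEACAM5-201, whereas both percentages are over whole transcripts. These matches are a description of letters and not of binding.

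The family members resemble each other closely enough to affect how reads are assigned. Over the coding sequence, CEACAM6 was 88.27% identical to CEACAM5, 87.11% to CEACAM1 and 79.44% to CEACAM7. The longest stretch it shared with CEACAM5 ran for 65 bases and that with CEACAM1 for 71 bases. The first 30 coding bases show this likeness and the distance of CEACAM19, with capitals where a base differs from CEACAM6.
CEACAM6: atgggacccccctcagcccctccctgcaga
CEACAM5: atggAGTcTccctcGgcccctcccCAcaga
CEACAM1: atgggGcAccTctcagccccAcTTCAcaga
CEACAM7: atgggGTccccTtcagccTGtccAtAcaga
CEACAM19: atggAGATTcccATGgGGAcCcAGGgcTgC
CEACAM19 differed from CEACAM6 at 17 of these 30 bases, the others at 7 or 8. Counts were assigned with kallisto, which matches short windows of each read to transcripts. Of all 31-base windows of CEACAM6-201, 7.29% also occurred in a CEACAM5 transcript and 4.88% in a CEACAM1 transcript. Of those of CEACAM5-201, 6.57% occurred in CEACAM6 and 5.01% in CEACAM1, and of those of CEACAM1-201, 3.61% occurred in CEACAM6 and 3.5% in CEACAM5. CEACAM7 shared 0.285% of its windows with CEACAM5 and CEACAM19 none with the other 4. With any other gene counted, 16.3% of the windows of CEACAM6-201 were shared, 20.7% of CEACAM5-201, 8.15% of CEACAM1-201 and 1.46% of CEACAM7-201. Most of each transcript could therefore be told apart, and the part of the shared windows in the values below was not tested. RefSeq promoters (250 bases before to 50 after the start, GRCh38.p14) were matched for 4 of the 5 genes, with CEACAM19 unmatched, and the closest pair was CEACAM5 and CEACAM7 with 84.69% identity.

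Each library held between 21799476 and 22059456 estimated counts. The 6 epithelial markers (EPCAM, CDH1, KRT7, KRT8, KRT18 and KRT19) summed to between 8214 and 10150 CPM (counts per 1000000 counts of the library) in every sample, whereas 5 granulocyte markers summed to at most 1.03 CPM, with S100A12 at 0 in all 12 samples. The sums were 1.14 to 2.86 CPM for 4 leukocyte markers, 7.94 to 12.8 CPM for 3 fibroblast markers and 8.62 to 14.2 CPM for 3 endothelial markers. The share of counts on mitochondrial genes was 11.8% to 13.3% in the NTC and siCEACAM6#2 samples. It was 12.5%, 15.3%, 14.3% and 14.6% in siCEACAM6#3 replicates 1 to 4, and its part in the results below was not tested.

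In NTC cells the family was led by CEACAM5. Per transcript length, in TPM (transcripts per 1000000 transcripts), its level was 855.5 ± 75.2, that of CEACAM6 301.0 ± 17.0, that of CEACAM1 8.28 ± 0.715, that of CEACAM19 1.22 ± 0.314 and that of CEACAM7 0.682 ± 0.196 (SD, n = 4 each). CEACAM5 and CEACAM6 together made up at least 98.7% of the summed TPM of the 5 genes in every sample. The order was the same in the group means of all 3 groups. Neighbours in that order did not overlap between samples, except CEACAM19 and CEACAM7 in the siCEACAM6#3 samples (0.718 to 1.55 against 0.604 to 1.09 TPM).

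The other 17 genes of the carcinoembryonic antigen family, 7 CEACAM genes and 10 pregnancy-specific glycoprotein (PSG) genes, had few counts or none. CEACAM4 and CEACAM18 were at 0 in all 12 samples, where a count of 0 allows up to 3 counts per library or 0.138 CPM. CEACAM8 and CEACAM3, which mark granulocytes, reached at most 2.00 and 11.1 counts in any sample. The highest by counts was PSG3, the only one of the 17 that passed the filter, at 3 to 23 counts per sample. It differed from NTC by 1.05 on the log2 scale in siCEACAM6#3 samples (adjusted p = 0.386 by limma-voom with Benjamini-Hochberg adjustment), which was not called, and PSG transcripts are near-identical copies whose counts are uncertain. In TPM the mean of PSG11 was above that of PSG3 in NTC (1.46 ± 0.914 against 0.651 ± 0.377) and in siCEACAM6#3 samples (1.86 ± 1.42 against 1.29 ± 0.637; SD, n = 4), from 1 to 9 counts per sample over the 12 samples.

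CEACAM6, the intended target, fell with both siRNAs. It was at 524, 569, 596 and 619 CPM in NTC replicates 1 to 4. With siCEACAM6#2 it was at 353, 343, 286 and 329 CPM. With siCEACAM6#3 it was at 423, 386, 424 and 438 CPM. No knockdown sample reached the NTC range, and all 4 siCEACAM6#2 samples lay below all 4 siCEACAM6#3 samples. Among the 17620 genes tested, 0.874% had all 8 knockdown samples below all NTC samples, and 3.34% had all siCEACAM6#3 samples above all siCEACAM6#2 samples. CEACAM6 mRNA was 56.7% of NTC with siCEACAM6#2 (95% confidence interval 51.4% to 62.6%; log2 fold change -0.82, SE 0.07, limma-voom, adjusted p = 2.71e-05) and ranked first of all genes by p-value. With siCEACAM6#3 it was 72.5% of NTC (65.7% to 80.1%; log2 fold change -0.46, SE 0.07, adjusted p = 0.0151) and ranked 3 by p-value. In these bulk cultures fewer cells holding an mRNA and less of it per cell cannot be told apart. With any 1 sample left out the siCEACAM6#3 value stayed between -0.50 and -0.43. Its adjusted p rose above 0.05, so that the call was lost, without NTC replicate 2 (-0.47, adjusted p = 0.0663), 3 (-0.44, 0.0561) or 4 (-0.43, 0.0674) or siCEACAM6#3 replicate 3 (-0.47, 0.0792). On log2(TPM + 1) it was -0.51 with an adjusted p of 0.117.

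**Figure D1:**
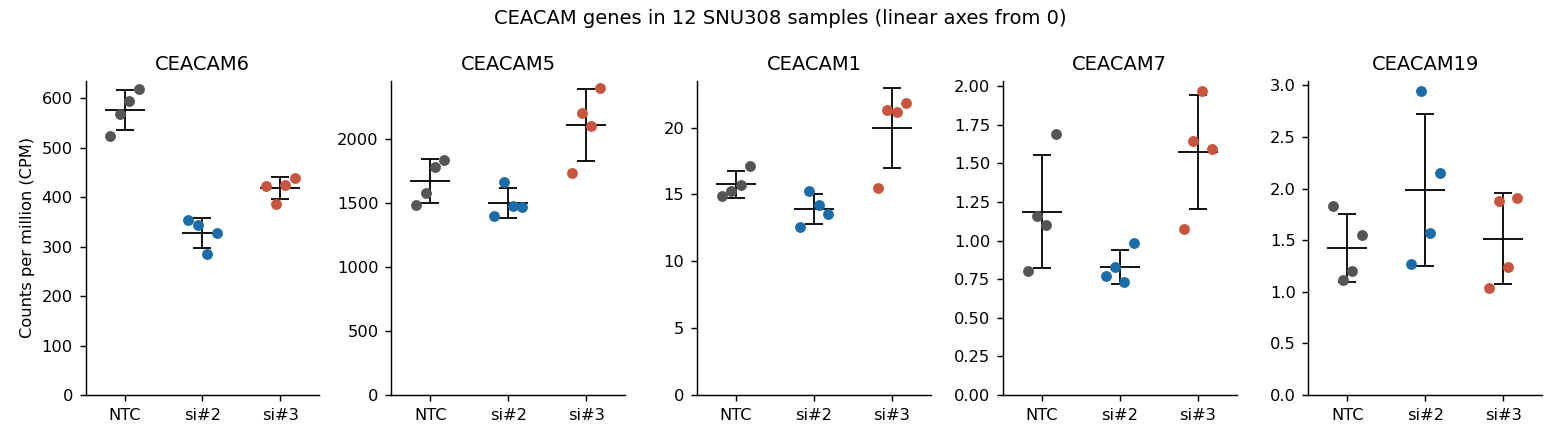
Level of each CEACAM gene in CPM (vertical axes, linear from 0, a separate scale per gene) in the NTC, siCEACAM6#2 (si#2) and siCEACAM6#3 (si#3) samples, each point 1 sample, bars mean ± SD of 4. CEACAM6 was below NTC in all 8 knockdown samples, whereas CEACAM5, CEACAM1 and CEACAM7 were higher in siCEACAM6#3 than in siCEACAM6#2 samples, with no overlap. Of the 17620 genes tested, 0.874% had the first pattern and 3.34% the second.

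CEACAM5, the most abundant member, was not called against NTC with either siRNA but differed between the siRNAs. Its NTC samples were at 1483, 1580, 1786 and 1841 CPM. The siCEACAM6#2 samples were at 1397, 1669, 1479 and 1467 CPM, and those with siCEACAM6#3 at 1733, 2205, 2102 and 2405 CPM. The siCEACAM6#2 samples overlapped NTC in their range, and siCEACAM6#3 replicate 1 lay within the NTC range while the other 3 lay above it. The log2 fold change against NTC was -0.15 with siCEACAM6#2 (95% confidence interval -0.34 to 0.04, adjusted p = 0.498) and 0.33 with siCEACAM6#3 (0.14 to 0.52, adjusted p = 0.162; limma-voom). Compared directly, CEACAM5 was 139.8% of its siCEACAM6#2 level with siCEACAM6#3 (122.5% to 159.5%, log2 difference 0.48, limma-voom, adjusted p = 0.0142). The ranges did not overlap, which held in this direction for 3.34% of the 17620 genes tested. The call between the siRNAs was lost without siCEACAM6#2 replicate 3 (adjusted p = 0.0501) or siCEACAM6#3 replicate 3 (adjusted p = 0.0508), at an unchanged difference of 0.48. Without siCEACAM6#3 replicate 1, CEACAM5 rose against NTC as well (log2 fold change 0.43, adjusted p = 0.0159), and DESeq2 called it on all samples (0.34, adjusted p = 0.0308). A limma-voom fit with the replicate number as a block also called CEACAM5 with siCEACAM6#3 against NTC.

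CEACAM1, the transmembrane member, was far less abundant than CEACAM5 and followed the same order of groups. It was at 14.9, 15.3, 15.7 and 17.2 CPM in NTC. It was at 12.5, 15.2, 14.2 and 13.6 CPM with siCEACAM6#2 and at 15.5, 21.3, 21.2 and 21.9 CPM with siCEACAM6#3. The 3 high siCEACAM6#3 samples were the same replicates that were high for CEACAM5. The log2 fold change was -0.18 with siCEACAM6#2 (-0.41 to 0.05, adjusted p = 0.498) and 0.33 with siCEACAM6#3 (0.11 to 0.55, adjusted p = 0.213), neither called. Between the siRNAs it rose by 0.51 (0.29 to 0.73, limma-voom, adjusted p = 0.0236), or to 142.6% of the siCEACAM6#2 level. Without siCEACAM6#3 replicate 1 CEACAM1 was also called against NTC (0.45, adjusted p = 0.0110). The call between the siRNAs was lost without any 1 of 5 samples, siCEACAM6#2 replicate 1, 3 or 4 or siCEACAM6#3 replicate 2 or 3, with differences of 0.46 to 0.52. On log2(TPM + 1) the difference was 0.39 (adjusted p = 0.249).

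CEACAM7, which sits next to CEACAM5 on the opposite strand, had few counts. Its counts were 18, 26, 24 and 37 in NTC. They were 17, 18, 16 and 22 with siCEACAM6#2 and 24, 35, 43 and 34 with siCEACAM6#3, from 0.730 to 1.97 CPM over all samples. The siCEACAM6#3 samples lay above the siCEACAM6#2 samples without overlap, a pattern that 3.34% of the 17620 genes tested had. The log2 difference between the siRNAs was 0.88 (0.34 to 1.41, limma-voom, adjusted p = 0.106) and was not called. It was called without siCEACAM6#3 replicate 1 (1.05, adjusted p = 0.0240). Against NTC the log2 fold changes were -0.46 and 0.41 with intervals that included 0.

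CEACAM19 was called in no comparison. It was at 1.83, 1.11, 1.20 and 1.55 CPM in NTC, at 1.27, 2.95, 1.57 and 2.15 CPM with siCEACAM6#2 and at 1.03, 1.87, 1.24 and 1.91 CPM with siCEACAM6#3. The 3 groups overlapped throughout. Its log2 differences were 0.42 (-0.15 to 1.00), 0.07 (-0.54 to 0.68) and -0.36 (-0.93 to 0.22) for siCEACAM6#2 against NTC, siCEACAM6#3 against NTC and siCEACAM6#3 against siCEACAM6#2, with adjusted p-values of 0.545, 0.948 and 0.628 (limma-voom). The siCEACAM6#3 value against NTC changed sign on the TPM scale (-0.09). At 23.0 to 63.8 counts per sample the interval with siCEACAM6#2 reached from 89.8% to 200.5% of NTC.

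**Figure D2:**
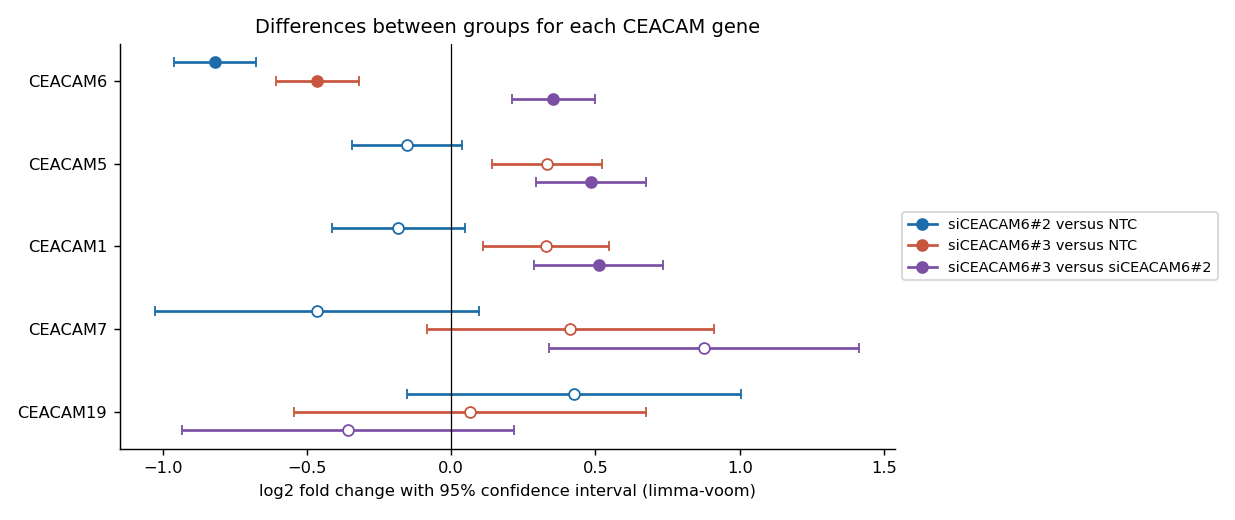
The log2 fold change of each CEACAM gene (horizontal axis, points with 95% confidence intervals) for siCEACAM6#2 against NTC, siCEACAM6#3 against NTC and siCEACAM6#3 against siCEACAM6#2, filled where the adjusted p was under 0.05. CEACAM6 was called in all 3 comparisons, and CEACAM5 and CEACAM1 only between the siRNAs, at 0.48 and 0.51.

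Counted over the 5 genes, 1 fell with siCEACAM6#2 and 1 fell with siCEACAM6#3, CEACAM6 both times, where 1.25% and 0.0681% of all 17620 tested genes were called in either direction, and 0.641% and 0.017% as lower. Between the siRNAs 3 of 5 were higher with siCEACAM6#3 (CEACAM6, CEACAM5 and CEACAM1), where 1.47% of tested genes were called and 0.84% as higher, and CEACAM7 and CEACAM19 were not called. The median log2 fold change over the 5 genes was -0.18, 0.33 and 0.48 in these comparisons, against 0.0002, -0.0032 and -0.0043 for all genes tested. The contrasts share samples, so these values are not independent of each other. With only the pair of groups compared in the fit, CEACAM5 alone was called between the siRNAs, and on the TPM scale none of the 5 was.

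CEACAM6 relative to CEACAM5 was lower in both knockdown groups than in NTC, and the knockdown groups overlapped. The ratio of their TPM was 0.363, 0.369, 0.339 and 0.341 in NTC replicates 1 to 4. The siCEACAM6#2 samples were at 0.258, 0.211, 0.197 and 0.229, those with siCEACAM6#3 at 0.251, 0.175, 0.205 and 0.184. All 8 knockdown samples lay below the NTC samples. The ratio holds the fall of the siRNA target itself, CEACAM6 having changed by -0.82 and CEACAM5 by -0.15 with siCEACAM6#2 and by -0.46 and 0.33 with siCEACAM6#3 (log2 fold changes above). The mean log2 ratio differed from NTC by -0.66 with siCEACAM6#2 and by -0.81 with siCEACAM6#3 (two-sided exact permutation test, p = 0.0286 each, the smallest that 4 against 4 allows, and 0.0429 after adjustment over the 9 tests on ratio, share and sum). Between the siRNAs it differed by -0.14 (siCEACAM6#3 lower, 95% interval by inversion of the exact test -0.56 to 0.34, p = 0.343, adjusted p = 0.371). CEACAM6 itself was higher with siCEACAM6#3 than with siCEACAM6#2 by 0.35 on the log2 scale (0.21 to 0.50, limma-voom, adjusted p = 0.0160). The order of the siRNAs by CEACAM6 level thus did not carry over to CEACAM6 relative to CEACAM5, and the interval of the ratio leaves room for a difference either way. The 0.35 difference was not called without siCEACAM6#2 replicate 3 (0.29, adjusted p = 0.0576) or siCEACAM6#3 replicate 3 (0.35, adjusted p = 0.0564).

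The share of CEACAM6 in the family gives the same comparison as a percentage, since CEACAM5 and CEACAM6 hold nearly all of the sum, and is no separate evidence. CEACAM6 made up 26.4%, 26.7%, 25.1% and 25.2% of the summed TPM of the 5 genes in NTC. After siCEACAM6#2 the share was 20.3%, 17.2%, 16.3% and 18.4%, and after siCEACAM6#3 19.9%, 14.7%, 16.8% and 15.4%. It fell by 7.78 percentage points with siCEACAM6#2 and fell by 9.14 with siCEACAM6#3 (exact permutation p = 0.0286 each, adjusted p = 0.0429), and the siRNAs differed by -1.37 points (-5.62 to 3.59, p = 0.371). The CEACAM5 share was 73.3% of the sum in NTC, 80.9% with siCEACAM6#2 and 82.3% with siCEACAM6#3 (means of 4).

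The summed level of the family, in contrast, went apart between the siRNAs. It was 1058, 1134, 1203 and 1272 TPM in NTC, 889, 998, 897 and 944 TPM with siCEACAM6#2, and 1123, 1318, 1268 and 1391 TPM with siCEACAM6#3. The siCEACAM6#2 samples lay below all others. The sum holds the fall of the siRNA target itself. Mean CEACAM6 was 301.0 TPM in NTC, 168.1 TPM with siCEACAM6#2 and 211.0 TPM with siCEACAM6#3. Mean CEACAM5, not called against NTC, was 855.5, 753.9 and 1051.3 TPM in the same order. The sum was 80.0% of NTC with siCEACAM6#2 (log2 difference -0.32, exact permutation p = 0.0286, adjusted p = 0.0429) and 109.2% with siCEACAM6#3 (log2 difference 0.13, interval -0.18 to 0.39, p = 0.229, adjusted p = 0.294). Between the siRNAs the log2 difference was 0.45 (0.17 to 0.65, exact permutation p = 0.0286, adjusted p = 0.0429). With counts in place of TPM the siCEACAM6#2 samples no longer lay apart from NTC (-0.29, exact permutation p = 0.0571), nor did the sum pass without siCEACAM6#2 replicate 1 or 3 (-0.30 each, exact permutation p = 0.0571).

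**Figure D3:**
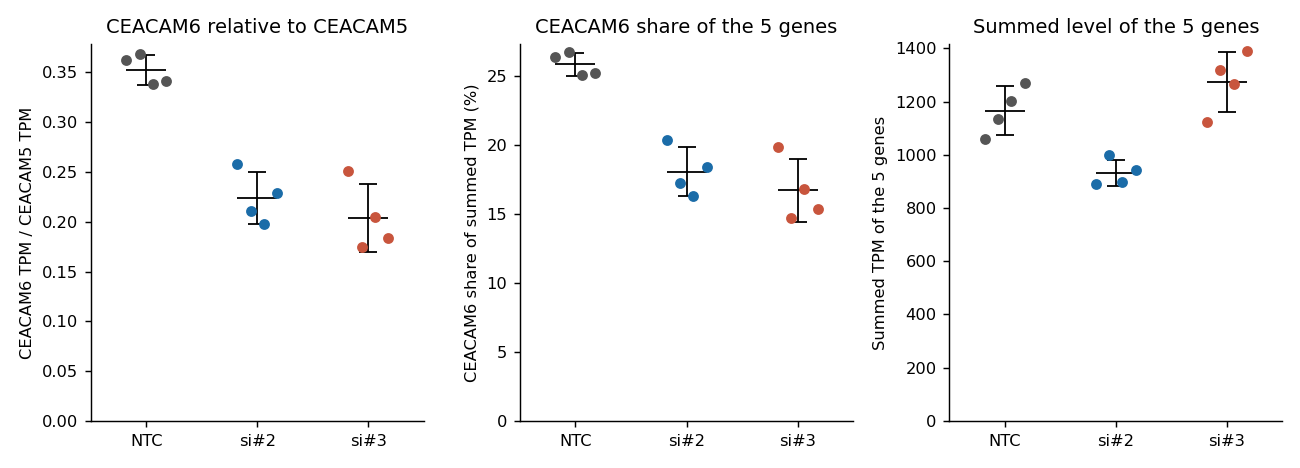
The ratio of CEACAM6 to CEACAM5 TPM, the CEACAM6 share of the summed TPM of the 5 CEACAM genes in percent, and that sum in TPM (vertical axes from 0), each point 1 sample, bars mean ± SD of 4 in the NTC, siCEACAM6#2 (si#2) and siCEACAM6#3 (si#3) groups. Ratio and share were below NTC in all 8 knockdown samples, while the sum lay below all NTC samples in the 4 siCEACAM6#2 samples.

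CEACAM5 and CEACAM1 varied together from sample to sample. CEACAM5 counts were 106.1 ± 6.02 times those of CEACAM1 in the NTC samples, 108.3 ± 2.99 times in the siCEACAM6#2 samples and 106.1 ± 5.88 times in the siCEACAM6#3 samples (SD, n = 4). The ratio lay between 99.3 and 113.8 in the 12 samples. With each group's mean removed, log2 CPM of the genes correlated over the 12 samples with Pearson r = 0.90 and Spearman rho = 0.95 (exact permutation within groups, p = 7.23e-05 each, the smallest that 13824 permutations can give, and 0.000723 after adjustment over 10 pairs of members). Without the 2 samples farthest from the median of CEACAM5, r was 0.83. Replicate 1 was the lowest of its group for both genes in every group. The permutation treats the groups as unrelated, and the part of experiments shared between them was not tested. Over the 12 samples CEACAM5 spanned 1397 to 2405 CPM and CEACAM1 12.5 to 21.9 CPM. A close r with CEACAM5 was not particular to the family. With the groups pooled, r with CEACAM5 was 0.98 for MUC20 and 0.96 for PADI3, beside 0.97 for CEACAM1. How many genes reach such an r with the group means removed was not tested.

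No other pair of members passed the adjustment. CEACAM1 and CEACAM7 had r = 0.69 (rho = 0.62, exact permutation p = 0.0265 and 0.0545, adjusted p = 0.0986 and 0.182). CEACAM1 and CEACAM19 had r = 0.63 (rho = 0.62, exact permutation p = 0.0296 and 0.0519, adjusted p = 0.0986 and 0.182). CEACAM5 had r = 0.67 with CEACAM7 (rho = 0.57, exact permutation p = 0.0514 and 0.0887, adjusted p = 0.128 and 0.184) and r = 0.57 with CEACAM19 (rho = 0.55, exact permutation p = 0.0715 and 0.0921, adjusted p = 0.143 and 0.184). Without the 2 samples farthest from the median of the first gene, r was 0.56, 0.36, 0.59 and 0.37 for these pairs. CEACAM6 and CEACAM5 had r = 0.31 (rho = 0.41, exact permutation p = 0.305 and 0.196, adjusted p = 0.435 and 0.327). CEACAM6 and CEACAM1 had r = 0.03 (rho = 0.25, exact permutation p = 0.924 and 0.445, adjusted p = 0.924 and 0.501). The remaining pairs, CEACAM6 and CEACAM7, CEACAM7 and CEACAM19, and CEACAM6 and CEACAM19, had r = 0.42, 0.20 and -0.08. The plot of CEACAM1 and CEACAM6 against CEACAM5 shows a single line for CEACAM1 and separate groups for CEACAM6.

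**Figure D4:**
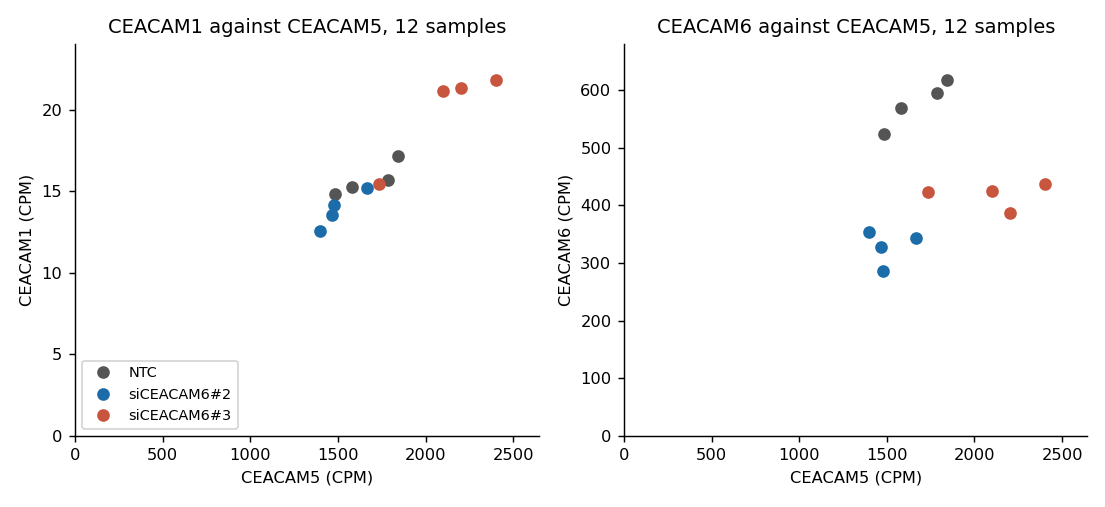
CEACAM1 (left) and CEACAM6 (right) against CEACAM5, all in CPM on linear axes from 0, each point 1 of 12 samples coloured by group. CEACAM1 followed CEACAM5 along 1 line across the 3 groups, whereas CEACAM6, also relative to CEACAM5, was lower in all knockdown samples than in NTC. Of the knockdown samples, only siCEACAM6#2 replicate 2 (1669) and siCEACAM6#3 replicate 1 (1733) lay within the NTC range of CEACAM5 (1483 to 1841 CPM). The part of windows shared between CEACAM5 and CEACAM1 transcripts was not tested.

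The genes whose log2 CPM over the 12 samples was most like that of each member were named among 12775 protein-coding genes, as a description. CEACAM5 came with MUC20, a membrane mucin (r = 0.98), CEACAM1 (r = 0.97) and PADI3, a peptidylarginine deiminase (r = 0.96). CEACAM1 came with CEACAM5 (r = 0.97), MUC20 (r = 0.96) and INPP1, an inositol phosphatase (r = 0.96). The log2 difference of siCEACAM6#3 from siCEACAM6#2 was 0.41 for MUC20, 0.59 for PADI3 and 0.33 for INPP1, given with no test since the genes were picked for this pattern.

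CEACAM6 was most like NDRG4 (r = 0.97), the mitotic kinesin gene KIFC1 (r = 0.94) and PHF19, a Polycomb-associated gene (r = 0.93). Likewise untested, their log2 fold changes against NTC were -0.39, -0.33 and -0.33 in siCEACAM6#2 samples and -0.22, -0.23 and -0.24 in siCEACAM6#3 samples. CEACAM7 was most like BAG4 (r = 0.92), FHOD3 (r = 0.91) and DEPP1 (r = 0.90), and CEACAM19 most like IL11RA (r = 0.91), CHID1 (r = 0.89) and GLDN (r = 0.86). The r values pool the groups, so they hold the difference between groups as well as that between replicates.

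Of 18 genes for reported partners and signalling proteins of CEACAM proteins, 17 were tested, and 1 call was made over the 3 comparisons. Of all tested genes 1.25% were called with siCEACAM6#2 and 0.0681% with siCEACAM6#3 against NTC, and 1.47% between the siRNAs. TGFBR1, the type I receptor for TGF-beta, was higher with siCEACAM6#3 than with siCEACAM6#2 by 0.34 on the log2 scale (0.19 to 0.49, limma-voom, adjusted p = 0.0247). The difference was 0.30 to 0.38 with any 1 sample left out, but the call was lost in 4 of 12 such fits, without siCEACAM6#2 replicate 1, 2 or 3 or siCEACAM6#3 replicate 3. TGFBR1 was also not called with library size only (0.32, adjusted p = 0.0596), in the fit of 2 groups (0.34, 0.0782) or on log2(TPM + 1) (0.38, 0.454). Over all 17620 genes DESeq2 called 534 with siCEACAM6#2 and 221 with siCEACAM6#3 against NTC. None of the 17 partner genes was called against NTC by limma-voom, with 0 by edgeR and 2 each by DESeq2, named here after their values were seen. With siCEACAM6#2 these were the adaptor gene SHC1 (0.20, DESeq2 adjusted p = 0.0270) and TGFBR1 (-0.24, 0.0375). With siCEACAM6#3 they were the integrin subunit genes ITGA2 (0.42, DESeq2 adjusted p = 0.00173) and ITGAV (0.34, 0.0308), at 0.40 and 0.33 by limma-voom (adjusted p = 0.109 and 0.179). An unadjusted limma-voom p under 0.05 was found for 4 of the 17 with siCEACAM6#2, 5 with siCEACAM6#3 and 5 between the siRNAs. Of all tested genes 13.6%, 12.5% and 13.3% reached that level. The most abundant were the actin crosslinker FLNA, with log2 fold changes of 0.11 and -0.015 against NTC, the junction protein gene CTNNB1 with 0.08 and -0.005, and the integrin subunit gene ITGB1 with 0.05 and 0.16. The median over the 17 was 0.07, 0.05 and 0.02 in the 3 comparisons.

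The genes that build and attach GPI anchors, on which the surface display of CEACAM5, CEACAM6 and CEACAM7 depends, were not called in any comparison by limma-voom. Of 29, 28 were tested, and 1, 4 and 4 had an unadjusted p under 0.05 in siCEACAM6#2 against NTC, siCEACAM6#3 against NTC and siCEACAM6#3 against siCEACAM6#2. Of all tested genes 13.6%, 12.5% and 13.3% reached that level. Among the 28, edgeR and DESeq2 each called 0, 0 and 1. That gene was PIGA, named after its values were seen, with a limma-voom log2 difference of -0.41 between the siRNAs (adjusted p = 0.0525). The most abundant, PIGT, PIGS and DPM2, changed by 0.14, 0.06 and -0.09 (siCEACAM6#2) and by 0.03, 0.07 and -0.13 (siCEACAM6#3) on the log2 scale, none of them called.

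Genes around CEACAM7, CEACAM5 and CEACAM6 gave no call either. Of 35 protein-coding neighbours with a start within 500000 bases, 22 were tested, with 0 called by limma-voom, edgeR or DESeq2. In the 3 comparisons 4, 1 and 5 of the 22 had an unadjusted p under 0.05, a level reached by 13.6%, 12.5% and 13.3% of all tested genes. The median log2 fold change of the 22 neighbours was -0.02, -0.02 and -0.001. The most abundant neighbours were the ribosomal protein gene RPS19 (log2 fold change 0.16, -0.02 and -0.19), HNRNPUL1 (-0.13, -0.13 and -0.001) and TGFB1 (-0.09, -0.005 and 0.08).

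**Figure D5:**
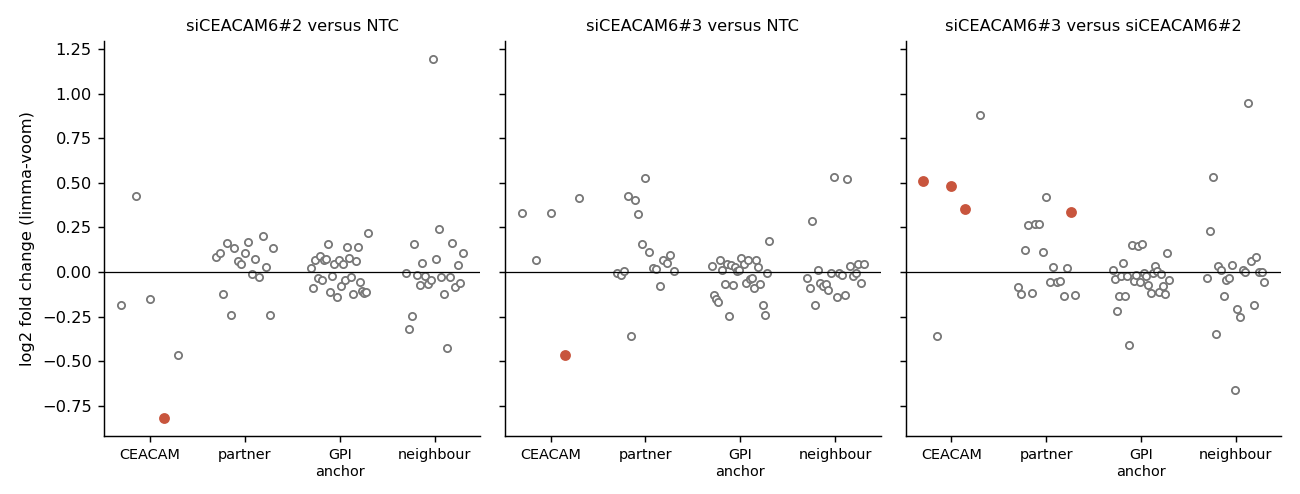
The log2 fold change of each tested gene (vertical axis, each point 1 gene, filled where the adjusted p was under 0.05) among the 5 CEACAM genes, 17 partner genes, 28 GPI anchor genes and 22 neighbouring genes, in the 3 comparisons. Outside the CEACAM genes 1 gene was called, TGFBR1 between the siRNAs at 0.34, a call lost in 4 of 12 fits with 1 sample left out.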

How the data were processed

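mRNA of 12 SNU308 cultures was sequenced (DNBSEQ, strand-specific per the labels). The authors trimmed reads with Trim Galore 0.6.4 and assigned them to transcripts with kallisto 0.4.6 on GRCh38.p13 (versions from the submitters' processing notes; the annotation release is not given in the sources used here, and labels and methods differ on transfection reagent and read layout, and the notes and methods on the kallisto version). They deposited estimated counts per gene, which share ambiguous reads between transcripts, and TPM, which scale those counts by effective length and sum to about 1000000 per sample. Counts within a library therefore keep its depth, 21799476 to 22059456, and TPM do not. The series text states 4 individual experiments per group; what differed between them is not given, so p-values measure the spread between these samples.

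Counts were rounded, filtered with edgeR 4.0.16 filterByExpr by group (17620 of 60617 genes kept), scaled by TMM and fitted with limma 3.58.1 voom in R 4.3.3 as 3 group means, with Benjamini-Hochberg adjustment over all tested genes and calls at an adjusted p under 0.05. The study names voom and limma, while the joint fit, filter and scaling were chosen here. CPM use TMM library sizes. On simulated counts with 200 genes changed 2-fold per siRNA, larger than any change of a member with all samples kept, the fit of 17390 genes recovered 93.0% for siCEACAM6#2 versus NTC (7.00% of its calls false) and 90.5% for siCEACAM6#3 versus NTC (2.69% false). Between the siRNAs it recovered 92.8% of 400 (2.11% false). Ratio, share and sum of the members were tested on TPM with two-sided exact permutation tests, and member pairs with exact permutations within groups. Alternatives were edgeR, DESeq2 1.42.0, log2(TPM + 1) and log2(TPM + 0.1) with limma, other scalings, filters and weights, fits of 2 groups, a replicate block and leaving out each sample.

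Named were the 5 members, from each list the genes called and the 3 with the highest mean CPM, and for each member the 3 genes of highest r among protein-coding genes with a mean of at least 1 CPM. The members and lists were chosen with earlier results of these data known. Target and transcript sequences come from the study's siRNA list and GENCODE transcripts on GRCh38, with alignments made in Biopython.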

Additional observations from a re-analysis of the deposited data

Results flagged for a closer look

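CEACAM1 in siCEACAM6#3 replicate 1 stood apart from the other 3 samples of its group. It was at 15.5 CPM against 21.2 to 21.9 CPM, and its gap to the nearest sample took up 0.907 of the group's range on the log2 scale, above Dixon's 95% critical value for 4 samples. Chance alone gives such a case in about 1 group in 20, and 24 groups of 4 values were looked at. The same sample had the lowest CEACAM5 (1733 CPM) and CEACAM7 (1.08 CPM) of its group and the lowest mitochondrial share (12.5% against 14.3% to 15.3%), whose part was not tested.

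The level of 3 members differed between the siRNAs in the direct comparison of siCEACAM6#3 with siCEACAM6#2 (limma-voom). The log2 difference was 0.51 for CEACAM1 (adjusted p = 0.0236), 0.48 for CEACAM5 (adjusted p = 0.0142) and 0.35 for CEACAM6 (adjusted p = 0.0160), each higher with siCEACAM6#3 in 4 of 4 samples. That separation was found for 3.34% of all tested genes. CEACAM5 and CEACAM1 were not called against NTC with either siRNA. All 3 calls were lost on either TPM scale, and without siCEACAM6#2 replicate 3 or siCEACAM6#3 replicate 3. In the fit of 2 groups only CEACAM5 was called.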

How the results depend on the processing

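The CEACAM6 call with siCEACAM6#2 held in every setting tried. Values below are for siCEACAM6#2 versus NTC, siCEACAM6#3 versus NTC and siCEACAM6#3 versus siCEACAM6#2 in that order, and the causes of the changes were not tested. Of all genes, 221, 12 and 259 were called. DESeq2 called 534, 221 and 556, sample weights 1120, 382 and 560, log2(TPM + 1) 3, 0 and 19, and log2(TPM + 0.1) 3, 1 and 26. Fits of 2 groups called 600 and 57 in the first and the third comparison, and no filter 24 in the second. With 1 sample left out these counts ranged from 49 (siCEACAM6#2 replicate 3) to 364 (siCEACAM6#3 replicate 4), 2 (siCEACAM6#3 replicate 3) to 258 (siCEACAM6#3 replicate 1) and 83 (siCEACAM6#2 replicate 3) to 651 (siCEACAM6#3 replicate 1).

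For siCEACAM6#3 versus NTC, 1 member was called, against 2 by DESeq2 and with sample weights, 0 on either TPM scale and 0 to 3 with 1 sample left out (3 without siCEACAM6#3 replicate 1, and 0 without NTC replicate 2, 3 or 4 or siCEACAM6#3 replicate 3). For siCEACAM6#3 versus siCEACAM6#2, 3 members were called, against 0 on either TPM scale, 1 in the fit of 2 groups and 0 to 4 with 1 sample left out (0 without siCEACAM6#2 replicate 3 or siCEACAM6#3 replicate 3). The CEACAM19 value with siCEACAM6#3 versus NTC, 0.07, became -0.09 and -0.16 on the TPM scales and -0.07 with sample weights, and ranged from -0.06 to 0.24 with 1 sample left out.

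Of the partner genes, siCEACAM6#2 versus NTC gave 0 calls, against 2 by DESeq2 and in the fit of 2 groups and 3 with sample weights. With siCEACAM6#3 versus NTC it was 0, against 2, 3 with sample weights and 0 to 2 with 1 sample left out. Between the siRNAs it was 1, against 2 by DESeq2, 3 with sample weights, 0 on either TPM scale, with library size only and in the fit of 2 groups, and 0 to 3 with 1 sample left out. The GPI anchor genes went from 0 to 1 between the siRNAs under edgeR, DESeq2, median-ratio size factors and a filter of at least 1 CPM in 4 samples, and to 0 to 1 with 1 sample left out. The neighbours went from 0 to 4 with sample weights and 1 in the fit of 2 groups for siCEACAM6#2 versus NTC, and to 1 with sample weights and 0 to 1 with 1 sample left out between the siRNAs. With counts in place of TPM the summed level with siCEACAM6#2 was -0.29 versus NTC, and -0.37 to -0.28 with 1 sample left out.

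The samples were not treated as paired by replicate number. Same-numbered samples correlated at -0.05 to 0.18 in their deviations from the group means, and not every sample correlated best with its own number. Replicate 1 was, however, the lowest of its group for CEACAM5 and for CEACAM1 in all 3 groups. Whether the numbers mark shared experiments is not stated and cannot be told from these values. A replicate block gave 87 genes, 2 members (CEACAM5 at 0.33, adjusted p = 0.0450 by limma-voom) and 1 partner gene (ITGA2 at 0.41, adjusted p = 0.0449 by limma-voom) with siCEACAM6#3 versus NTC. In the sign-flip test of same-numbered differences, whose smallest p is 0.125, the log2 ratio gave -0.66 and -0.81 and the share -7.78 and -9.14 points versus NTC, and the sum -0.32 versus NTC with siCEACAM6#2 and 0.45 between the siRNAs, so this test could not reach the threshold.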

Other observations

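The deposited counts per TPM of a gene reflect the effective length of the transcripts its counts were assigned to, and for some members this differed between samples. Relative to its mean over 12 samples and to the median gene, it was 99.7% to 100.2% for CEACAM6, but for CEACAM7 it was 53.2% in siCEACAM6#2 replicate 3 and 98.9% to 107.3% elsewhere. CEACAM7 was thus lowest of its group in that sample by CPM (0.730) and highest by TPM (0.800). For CEACAM1 the value ranged from 81.2% in the same sample to 114.4% in NTC replicate 1.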
